A study of Mus musculus with 5 samples.

Results

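The 10 genes described here, Tgfb1, Tgfb2, Nrros, Ltbp1, Tgfbr1, Tgfbr2, Smad2, Smad3, Smad7 and Skil, were picked from a list of transforming growth factor beta (TGF-beta) pathway genes, and all 10 were among the 32285 genes of the count matrices. Single-nucleus RNA sequencing (snRNA-seq) had been performed on sorted brain nuclei, labelled as hippocampus, from 5 mice, with 1 library per mouse. Both groups carried the Tmem119-creERT2 driver, a tamoxifen-dependent Cre whose effect, by the study's account, is largely limited to microglia and macrophages of the brain. The 2 R241E mice were cGaswt/R241E, with 1 allele that switches on a nucleosome-binding mutant of the DNA sensor cGAS, and the 3 control mice were cGaswt/wt (WT). The study's methods give tamoxifen to young adult mice and a sort against the neuronal protein NeuN and the oligodendrocyte-lineage protein Olig2. The sample titles give the controls wild-type Cgas, which was followed here, whereas the study's results text calls them heterozygous. A treatment text about H151 in aged mice accompanies every sample but assigns no sample, and it was not used.

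TGF-beta ligands are secreted in a latent form in which the ligand stays wrapped in its own propeptide. The latent complex is tethered either to the cell surface by NRROS, a protein of microglia and other myeloid cells, or to the extracellular matrix by latent TGF-beta binding proteins such as LTBP1, until integrins release it. The active ligand joins the type II receptor TGFBR2 to the type I receptor TGFBR1, which phosphorylates SMAD2 and SMAD3, and these enter the nucleus with SMAD4 to regulate target genes. SMAD7 blocks the type I receptor and SKIL (SnoN) represses transcription by SMAD complexes, and both are induced by the signal as feedback inhibitors. In the brain the pathway maintains the identity of microglia and the stability of blood vessels.

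On the mouse assembly GRCm38.p6 the ligand genes lie at chr7:25687002-25705077 (Tgfb1) and chr1:186622787-186709697 (Tgfb2), and the latency genes at chr16:32142785-32165594 (Nrros) and chr17:75005480-75392512 (Ltbp1). The receptor genes lie at chr4:47353222-47414926 (Tgfbr1) and chr9:116087695-116175363 (Tgfbr2). Smad3 lies at chr9:63646766-63757994 and Skil at chr3:31095058-31122923. All 10 are protein-coding genes. Across all kept nuclei they drew between 236 UMIs (Ltbp1) and 48241 UMIs (Tgfbr1), where a UMI is 1 captured RNA molecule.

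Promoter sequences, from 250 bases before to 50 bases after an annotated transcript start, were found in RefSeq (GRCm38.p6) for 7 of the 10 genes, Tgfb1, Tgfb2, Nrros, Ltbp1, Tgfbr1, Tgfbr2 and Smad3. The first 3 printed here belong to Nrros, the only one of the 10 genes that passed the test between genotypes in microglia, and to the ligand genes Tgfb1 and Tgfb2, which were highest in different classes. The 4th belongs to Smad6, an inhibitory SMAD gene that was called higher in R241E microglia. It was the only called gene outside the 10 whose window was searched. Capitals mark the Smad-binding core CAGAC and the palindromic Smad box GTCTAGAC, each searched on both strands, and TATAAA, searched on the printed strand only. The windows are chr16:32165545-32165844 (minus strand) for Nrros, chr7:25686752-25687051 (plus strand) for Tgfb1, chr1:186705940-186706239 (minus strand) for Tgfb2 and chr9:64022010-64022309 (minus strand) for Smad6.
Nrros: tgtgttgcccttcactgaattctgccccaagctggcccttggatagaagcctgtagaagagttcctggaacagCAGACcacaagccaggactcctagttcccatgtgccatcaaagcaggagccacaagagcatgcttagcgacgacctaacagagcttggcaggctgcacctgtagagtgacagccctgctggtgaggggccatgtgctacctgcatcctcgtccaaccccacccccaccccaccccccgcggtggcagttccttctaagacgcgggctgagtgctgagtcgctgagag
Tgfb1: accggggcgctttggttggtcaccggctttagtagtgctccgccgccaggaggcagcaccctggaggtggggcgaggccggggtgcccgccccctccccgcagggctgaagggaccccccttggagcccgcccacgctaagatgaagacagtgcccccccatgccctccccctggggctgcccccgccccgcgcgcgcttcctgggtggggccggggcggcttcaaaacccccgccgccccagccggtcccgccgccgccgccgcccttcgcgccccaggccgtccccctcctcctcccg
Tgfb2: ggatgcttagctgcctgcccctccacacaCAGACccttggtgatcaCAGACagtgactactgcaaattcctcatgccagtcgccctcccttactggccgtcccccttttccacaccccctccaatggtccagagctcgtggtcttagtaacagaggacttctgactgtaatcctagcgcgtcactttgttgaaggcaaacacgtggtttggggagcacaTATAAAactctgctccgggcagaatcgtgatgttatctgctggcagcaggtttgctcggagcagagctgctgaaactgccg
Smad6: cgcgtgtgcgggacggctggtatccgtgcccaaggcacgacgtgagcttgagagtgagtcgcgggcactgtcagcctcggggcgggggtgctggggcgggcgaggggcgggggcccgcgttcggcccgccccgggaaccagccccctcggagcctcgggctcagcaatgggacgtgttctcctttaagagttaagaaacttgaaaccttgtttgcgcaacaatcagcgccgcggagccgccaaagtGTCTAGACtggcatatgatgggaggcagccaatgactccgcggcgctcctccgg
The Smad6 window held GTCTAGAC starting at position -4, counted from the transcript start, a motif present in 0.213% of 32851 RefSeq promoter windows of this length. GTCTAGAC had no match in the windows of the 7 genes. CAGAC is common, being present in 49.6% of the windows. It occurred at -177 in Nrros and at 2 places in Tgfb2, the first at -221, and had no match in Tgfb1. TATAAA, in 8.32% of the windows, stood at -31 in Tgfb2 and in none of the other printed windows. The interferon-stimulated response element core, in 3.44% of the windows on either strand, had no match in the windows of the 7 genes or of Smad6. Matches are descriptions of the letters and were not tested as binding sites.

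The files held 9748 nuclei, of which 9505 were kept. Library totals ranged from 4183709 to 10130667 UMIs and the median kept nucleus from 2126 to 3364 UMIs, and R241E replicate 2 had the smallest total. Only 13 of 9735 distinct barcodes occurred in more than 1 library. Classes were named from marker genes in 25 clusters, and every name is short for nuclei that resemble the class. Each of the clusters called microglia had all 10 microglial markers detected, Tmem119, P2ry12 and Sall1 among them, and mural cells and endothelial cells had 8 and 10 of 10. There were 5377 microglia, 343 border-associated macrophages (BAMs), 607 mural cells, 509 fibroblasts, 571 astrocytes, 651 oligodendrocytes and 748 neurons. Mural cells are the pericytes and smooth muscle cells of vessel walls. The smooth muscle marker Acta2 had no UMI in the WT mural nuclei. Monocytes or neutrophils, lymphocytes, endothelial cells, tanycytes and pituitary cells had under 20 nuclei in at least 1 library and were not tested. R241E replicate 1 held 51 of 53 pituitary nuclei, 133 of 188 tanycytes and 120 of 193 lymphocytes. The label hippocampus does not cover pituitary cells, and the part of this uneven mix in the results was not tested. The 60 endothelial nuclei, 7 to 17 per library, make the endothelium the vessel class with the least data. Interferon genes separated the genotypes: the 28 genes of the list that the study used to score interferon-responsive microglia were all called higher in R241E microglia, with a median log2 fold change of 4.18. That list is not independent evidence, since the study used it on these nuclei.

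Levels are given as CPM (counts scaled by the total), the UMIs of a gene in the summed nuclei of 1 class and library divided by all UMIs of that sum, in the usual unit of CPM. They are compared within a gene and between classes only, without a test, because classes were defined from the same nuclei. Fewer cells that express a gene and less RNA per cell cannot be told apart in such sums. The 10 genes fell into a myeloid set, highest in microglia or BAMs (Tgfb1, Nrros, Tgfbr1, Tgfbr2, Smad2, Smad3 and Skil), and a set highest in other classes (Tgfb2, Ltbp1 and Smad7), among the 7 tested classes. For each gene the 3 most similar genes were also taken, by Pearson's r of log2(CPM + 1) over 35 sums (7 tested classes in 5 libraries) among 8578 genes with a mean of at least 20 CPM. These correlations mostly follow class and share libraries and depth, so they are descriptions.

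**Figure D1:**
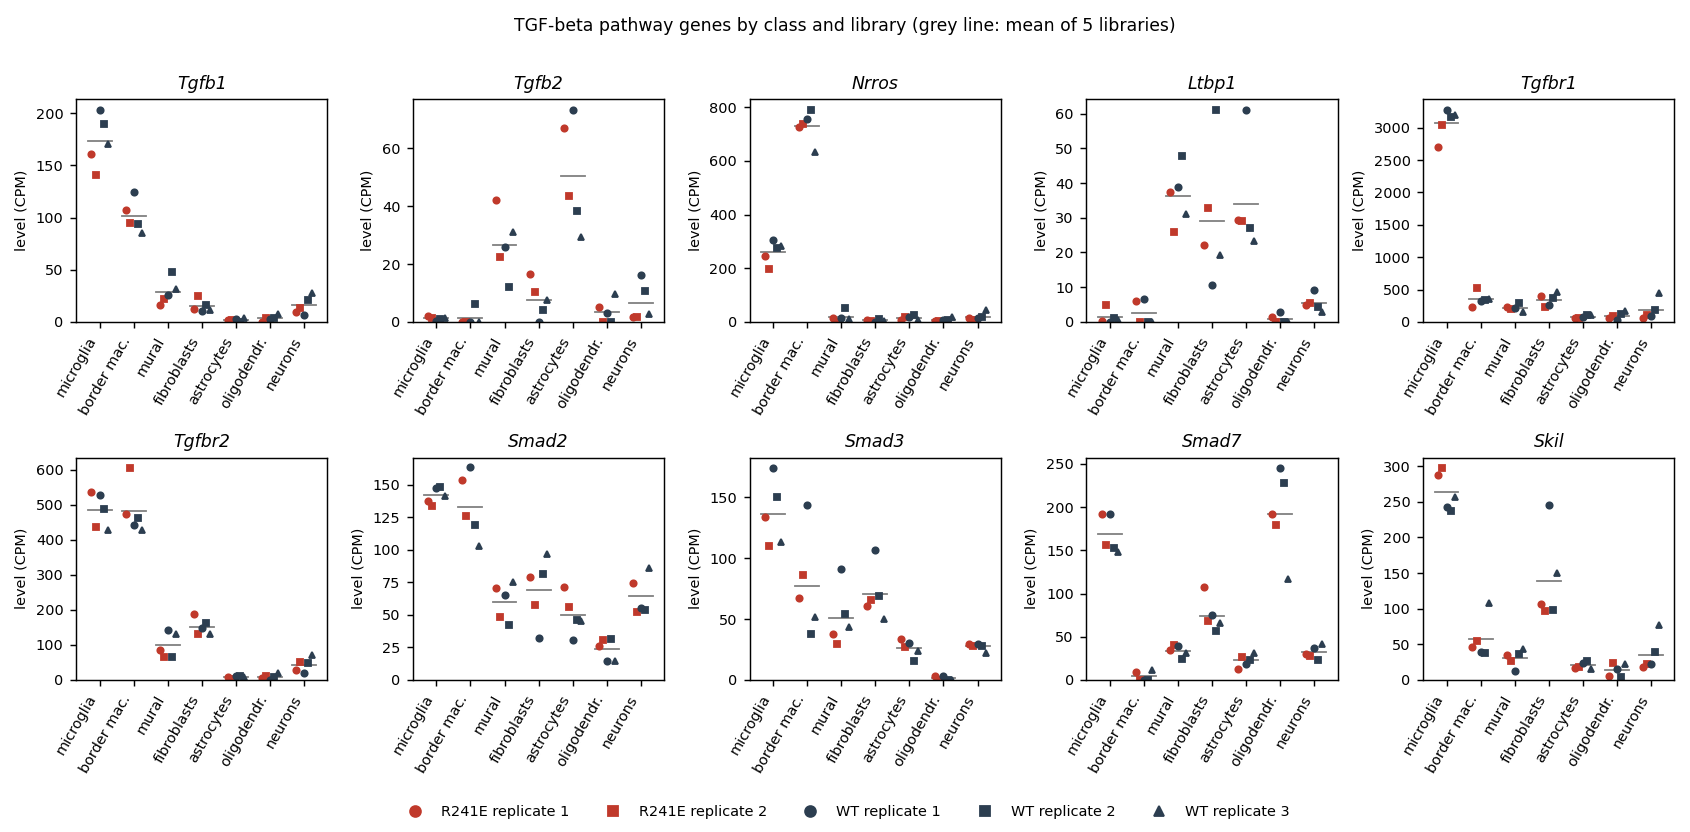
Level (CPM, linear axis from 0) of each of the 10 genes in the 7 tested classes. Each point is 1 library, red for R241E and dark blue for WT, with replicates by symbol, and grey lines are means of 5 libraries. Tgfbr1 stands near 3074 CPM in microglia and at 519 CPM or lower in every other class, whereas Tgfb2 and Ltbp1 lie near 0 in microglia and BAMs.

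Among ligands, Tgfb1 was highest in microglia, at 173 ± 24.4 CPM (SD, n = 5 libraries), followed by BAMs at 101 ± 15.02 CPM and mural cells at 28.7 ± 11.9 CPM. The library ranges of microglia (141 to 203 CPM), BAMs (85.6 to 124 CPM) and mural cells (16.4 to 47.8 CPM) did not overlap. Astrocytes and oligodendrocytes held 6 Tgfb1 UMIs each. The untested monocytes or neutrophils had 200 ± 76.1 CPM, a range of 138 to 331 CPM that overlapped microglia. Its pattern was most like that of Unc93b1, Rel and Otulinl (r = 0.931, 0.930 and 0.924).

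Tgfb2 showed the opposite arrangement. It was highest among tested classes in astrocytes, with 67.1 and 43.7 CPM for R241E and 73.2, 38.5 and 29.3 CPM for WT, a mean of 50.3 ± 18.9 CPM. Mural cells followed with 42.2 and 22.3 CPM in R241E and 26.0, 11.95 and 31.2 CPM in WT, and the astrocyte and mural ranges overlapped. Microglia held 19 Tgfb2 UMIs in all 5 libraries together (1.27 ± 0.549 CPM) and BAMs held 1. The 60 endothelial nuclei held 17 Tgfb2 UMIs, pooled at 123 CPM with an exact Poisson interval of 71.6 to 197 CPM, which covers counting error only. That interval lay above every mural library, although single endothelial libraries had 1 to 6 UMIs. Tanycytes, the ependymal-like cells of the ventricle floor, ranged from 0 to 421 CPM between libraries. The genes most like Tgfb2 were Emp2, Rgs6 and Nhsl1 (r = 0.879, 0.828 and 0.823).

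The anchors of latent TGF-beta divided in the same way. Nrros was highest in BAMs, at 726 and 739 CPM in R241E and 758, 790 and 634 CPM in WT, and microglia came next at 261 ± 41.6 CPM with no overlap of ranges. The untested monocytes or neutrophils had 350 ± 77.7 CPM, and every non-myeloid tested class had at most 53.8 CPM in any library. Nrros was most like Hpgds, Pld4 and Gnaq (r = 0.942, 0.906 and 0.906). Ltbp1 was highest in mural cells (36.3 ± 8.25 CPM), astrocytes (33.9 ± 15.3 CPM) and fibroblasts (29.2 ± 19.5 CPM), 3 classes whose ranges overlapped, and microglia held 15 Ltbp1 UMIs in all. Within fibroblasts, Ltbp1 stood at 53.8 CPM (interval 37.9 to 74.2 CPM) in a cluster of 239 nuclei led by Pdgfra and Lama1, and at 7.23 CPM (2.91 to 14.9 CPM) in a cluster of 225 nuclei led by Slc47a1. Skil went the other way between these clusters, at 81.4 and 151 CPM. Ltbp1 was most like Ppara, Fads2 and Npas2 (r = 0.917, 0.911 and 0.897).

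The type I receptor gene Tgfbr1 was the most class-specific of the receptor pair. Microglia had 2696 and 3043 CPM in R241E and 3273, 3165 and 3192 CPM in WT, a mean of 3074 ± 227 CPM. BAMs followed at 354 ± 106 CPM and fibroblasts at 343 ± 101 CPM, and these neighbours overlapped. The untested monocytes or neutrophils had 1193 ± 264 CPM. After each nucleus was thinned to 1000 UMIs, 88.2% to 92.8% of microglia in each library still held a Tgfbr1 UMI (96.0% to 97.9% unthinned, median depth 2061 to 3056 UMIs). The share in astrocytes, at median depths of 3188 to 5218 UMIs, was 3.94% to 10.3% (13.4% to 27.6% unthinned). Free RNA gives UMIs in nuclei that do not express a gene. The summed microglial markers in mural cells stood at 9.44% of their level in microglia (6.58% to 14.2% by library), and mural Tgfbr1, at 215 ± 49.5 CPM, was 7.03% of its microglial level (4.69% to 9.06%). Mural Tgfbr1 was below the markers in 4 of 5 libraries and level with them in R241E replicate 2 (6.60% against 6.58%), so Tgfbr1 of mural cells and free microglial RNA cannot be told apart here. In fibroblasts the markers stood at 4.39% (2.44% to 5.96%) and Tgfbr1 at 11.3% (7.36% to 14.8%), with no overlap. Tgfbr1 was most like Srgap2, Ldlrad4 and Rnf216 (r = 0.919, 0.917 and 0.913).

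The type II receptor gene Tgfbr2 was shared between myeloid classes. Microglia (485 ± 50.4 CPM) and BAMs (483 ± 70.6 CPM) overlapped, fibroblasts followed at 153 ± 23.7 CPM, and mural cells at 98.7 ± 36.2 CPM overlapped fibroblasts. In mural cells this was 20.5% of the microglial level (13.5% to 30.6%), above the 9.44% of the microglial markers on average, and it was above them in 4 of 5 libraries, the exception being WT replicate 2 (13.5% against 14.2%). Astrocytes had 8.24 ± 4.04 CPM, 1.67% of the microglial level. The endothelial nuclei held 40 Tgfbr2 UMIs, pooled at 289 CPM (interval 207 to 394 CPM). Genes most like Tgfbr2 included Gsdmd and Fli1 (r = 0.952 and 0.951).

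Of the effectors, Smad2 was similar in microglia (142 ± 6.37 CPM) and BAMs (133 ± 24.9 CPM), whose ranges overlapped, and lower in fibroblasts, neurons, mural cells and astrocytes (49.8 to 69.2 CPM on average, all overlapping their neighbours). Smad3 was highest in microglia at 136 ± 26.6 CPM, overlapping BAMs at 77.3 ± 41.4 CPM, and was nearly missing from oligodendrocytes, with 5 UMIs. The Pdgfra and Lama1 fibroblast cluster had 115 CPM of Smad3 (interval 91.0 to 143 CPM), against 32.0 CPM (21.8 to 45.4 CPM) in the Slc47a1 cluster. Smad2 was most like Dtnbp1 and Foxo3 (r = 0.891 and 0.869), and Smad3 most like Dgka, Camk2d and Fchsd2 (r = 0.911, 0.909 and 0.897).

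The inhibitor genes had unlike patterns. Smad7 was highest in oligodendrocytes, with 192 and 179 CPM in R241E and 245, 228 and 116 CPM in WT, and microglia overlapped at 168 ± 21.7 CPM. BAMs held 5 Smad7 UMIs in 343 nuclei (pooled 5.31 CPM, interval 1.72 to 12.4 CPM). They had as much Tgfbr2 as microglia but less Tgfbr1 (354 against 3074 CPM on average) and less Skil (57.2 against 264 CPM). In 3 of the 5 libraries BAMs held no Smad7 UMI, which allows up to 18.8 to 23.6 CPM (3 UMIs per library). Skil was highest in microglia at 264 ± 26.9 CPM, followed by fibroblasts at 139 ± 63.3 CPM, whose range overlapped through WT replicate 1 alone (245 CPM). Smad7 was most like Sort1, Polr1a and Plpp1 (r = 0.839, 0.827 and 0.820), and Skil most like Pmepa1, itself a TGF-beta-induced inhibitor, Anxa3 and Pdk1 (r = 0.900, 0.862 and 0.860).

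The main comparison asked whether these genes differed between R241E and WT microglia. Of the 8 genes with enough counts only Nrros passed the test, lower in R241E microglia. It passed in 7 of 14 alternative settings. Summed counts of microglia from 2 R241E libraries (1006 and 524 nuclei) and 3 WT libraries (926, 1470 and 1451 nuclei) were fitted over all 12725 genes with edgeR's quasi-likelihood test, and a gene was called at a Benjamini-Hochberg adjusted p under 0.05. Of all genes 1183 were called, 769 higher and 414 lower, a background of 9.3%, and 38% of the genes had no overlap between the libraries of the groups. Of the 8 tested genes 1 was called, close to the 9.3% background, and 5 had no overlap. Their median log2 fold change was -0.15, against -0.0048 for all genes tested. With 2 and 3 libraries an exact permutation test of a single gene cannot go below p = 0.1. R241E microglia fell mostly in 3 clusters, of which 1 was led by Ifi207, Ifi213 and Ifi204 and another by complement genes such as C1qc and C1qa, and WT microglia mostly in 2 others.

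**Figure D2:**
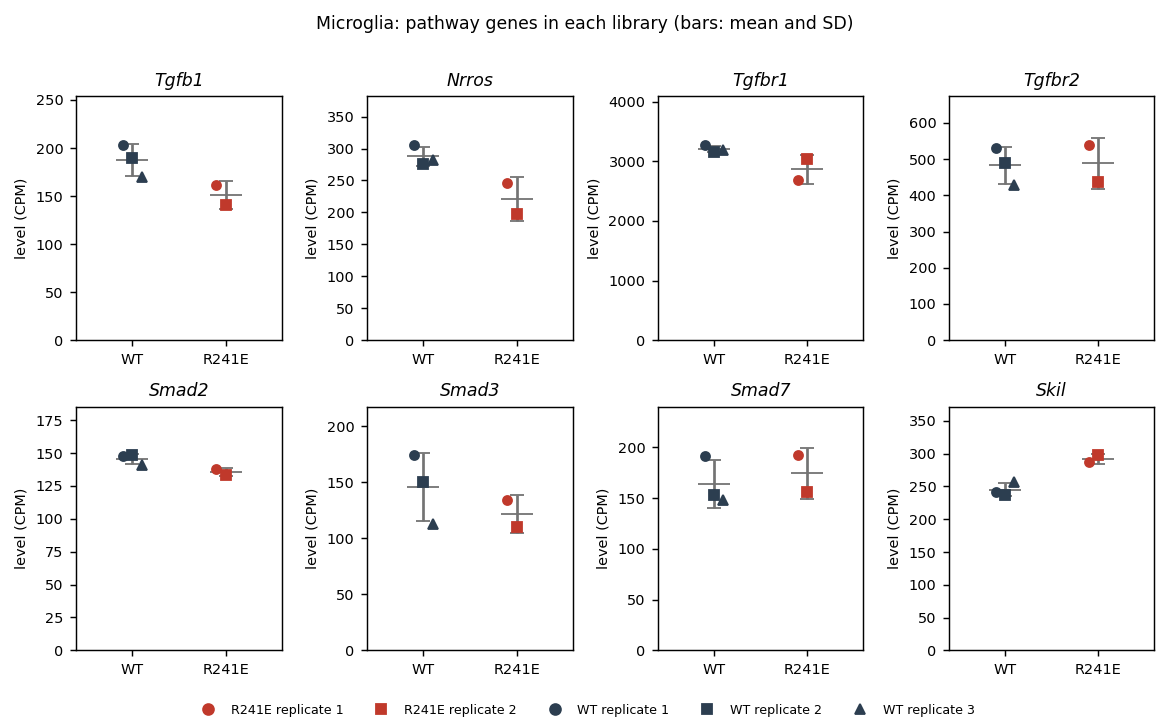
Level (CPM, linear axis from 0) of the 8 tested genes in the summed microglia of each library, with means and SDs as bars. Both R241E libraries lie below all WT libraries for Tgfb1, Nrros, Tgfbr1 and Smad2 and above them for Skil, and the groups overlap for Tgfbr2, Smad3 and Smad7.

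Nrros counted 246 and 197 CPM for R241E, and 305, 276 and 282 CPM for WT. Both R241E values lay below all WT values, and R241E replicate 2 was the lowest. The log2 fold change was -0.38 ± 0.11 (SE; 95% interval -0.61 to -0.14), with an adjusted p of 0.0435 by edgeR's quasi-likelihood test. The call rested on single libraries: it was lost without R241E replicate 2 (log2 -0.24, adjusted p = 0.391), WT replicate 1 (-0.33, 0.150) or WT replicate 2 (-0.40, 0.103), and kept without R241E replicate 1 or WT replicate 3. It was also lost in the DESeq2 Wald test (log2 -0.38, adjusted p = 0.0706), in nuclei thinned to 1000 UMIs (-0.34, 0.123), in classes clustered without the listed genes (-0.37, 0.0512) and in microglia without a UMI of 8 BAM markers (-0.32, 0.107). Those BAM markers, which like Nrros are highest in BAMs, summed to 98.3 to 143 CPM in R241E microglia and 211 to 240 CPM in WT. The direction was the same in all 14 alternatives.

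Tgfb1, the ligand that NRROS anchors, had 161 and 141 CPM in R241E and 203, 190 and 170 CPM in WT. Both R241E values lay below the WT range, with a log2 fold change of -0.32 ± 0.11 and an adjusted p of 0.109 by edgeR, so it was not called. Without WT replicate 3 it passed (log2 -0.38, adjusted p = 0.0212). It was called in only 2 of 14 alternatives, over which its log2 fold change ran from -0.44 to -0.16. Skil, the transcriptional inhibitor, had 287 and 298 CPM in R241E and 242, 238 and 256 CPM in WT. These libraries did not overlap either, and the log2 fold change of 0.23 ± 0.092 had an adjusted p of 0.146.

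Tgfbr1 had a log2 fold change of -0.18 ± 0.089 in microglia (adjusted p = 0.264 by edgeR), with R241E replicate 1 the lowest library. Tgfbr2, at 538 and 438 CPM in R241E and 529, 488 and 429 CPM in WT, differed by 0.0076 ± 0.12 on the log2 scale (interval -0.24 to 0.26), and its sign turned in 7 of 14 alternatives. Smad2 differed by -0.12 ± 0.10 and Smad3 by -0.25 ± 0.16, with Smad3 overlapping between groups. Without WT replicate 3, Smad3 passed the test (log2 -0.40, adjusted p = 0.0372). It was called in only 2 of 14 alternatives, with log2 fold changes from -0.44 to -0.099. Smad7 differed by 0.092 ± 0.13 with overlapping groups. Tgfb2 and Ltbp1, with 19 and 15 UMIs in microglia, were below the count filter and were not tested.

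The wider pathway was read from 5 lists of 56 genes, chosen with earlier results of these data known. Of these, 37 were tested in microglia, 4 were called higher and 2 lower, with a median log2 fold change of -0.069. Of all 12725 genes tested, 769 were called higher and 414 lower (9.3% in either direction), with a median of -0.0048. Both listed genes called lower, Zfyve9 and Dab2, bring SMAD2 and SMAD3 to receptors or endosomes. Zfyve9 (SARA, the SMAD anchor at endosomes) had 61.3 and 57.4 CPM in R241E and 91.0, 79.3 and 83.7 CPM in WT. Its log2 fold change was -0.51 ± 0.13 (adjusted p = 0.0169 by edgeR), and the call was lost without either R241E library or WT replicate 1 (adjusted p up to 0.110). Dab2, an endocytic adaptor, had 5.03 and 9.69 CPM in R241E and 16.2, 17.8 and 17.1 CPM in WT, with no overlap. It fell by 1.38 on the log2 scale (SE 0.29, adjusted p = 0.0059), or by 0.85 with no call without R241E replicate 1 (adjusted p = 0.257).

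Dab2 is a strong BAM gene, with 2364 to 3095 CPM there, and moved in the direction of the BAM markers in the microglial sums, of which Cd163 was at 0 in R241E. In microglia without a UMI of these markers, a setting chosen after seeing the data, the log2 fold change of Dab2 was -1.10 (adjusted p = 0.0620). Of 15 marker lists summed in microglia, 2 were below all WT libraries in R241E and 6 were above them. Endothelial markers were the other list below, at 31.4 to 31.8 CPM against 41.3 to 45.0 CPM. Above were the markers of oligodendrocytes (263 to 393 CPM against 167 to 191 CPM), monocytes or neutrophils (644 to 739 CPM against 562 to 579 CPM) and lymphocytes (67.8 to 74.4 CPM against 59.0 to 60.2 CPM). Markers of mural cells (31.7 to 35.3 CPM against 17.4 to 24.0 CPM), oligodendrocyte precursors (13.8 to 18.5 CPM against 11.5 to 13.5 CPM) and ependymal cells (24.2 to 24.5 CPM against 19.8 to 21.5 CPM) were above as well. Their part in the results for the 10 genes was not tested.

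Of the 13 inhibitors and turnover genes all were tested, and 4 had positive and 9 negative log2 fold changes, with a median of -0.14. From this list 2 were called higher and none lower, where 769 of all 12725 genes were called higher and 414 lower. Smad6, an inhibitory SMAD, had 13.2 and 11.8 CPM in R241E and 6.87, 4.61 and 7.50 CPM in WT, a log2 fold change of 1.01 ± 0.30 (adjusted p = 0.0467 by edgeR) from 59 and 62 UMIs. Tgif1, a co-repressor of SMAD transcription, had 59.7 and 71.3 CPM against 40.0, 40.4 and 52.8 CPM, a change of 0.52 ± 0.15 (adjusted p = 0.0468). Both sets of libraries were apart, and both calls were kept only without WT replicate 3 when libraries were left out in turn. Ldlrad4 and Pmepa1, inhibitors induced by the pathway, were not called, with adjusted p of 0.231 and 0.189.

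Among the 14 target genes 8 were tested, 7 had positive log2 fold changes and 2 were called, both higher, where 49.2% of all genes tested had positive values and 769 of 12725 were called higher. Cdkn1a, which encodes the cell-cycle inhibitor p21, had 14.1 and 11.1 CPM in R241E and 2.83, 2.54 and 2.70 CPM in WT. It rose by 2.25 ± 0.34 on the log2 scale, 4.74-fold (adjusted p = 3.71e-04 by edgeR), and was called without each library in turn. Junb, an AP-1 subunit, had 121 and 145 CPM against 93.4, 87.9 and 108 CPM, a change of 0.43 ± 0.12 (adjusted p = 0.0358) that was called only without WT replicate 3 when libraries were left out. Both genes also respond to signals other than TGF-beta. Cdkn1a passed the low-count filter through its R241E libraries alone, as all its WT values lay below the cutoff. Its direction was thus favoured by the filter, also in the counts of positive and called target genes, and in thinned nuclei it was not tested.

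**Figure D3:**
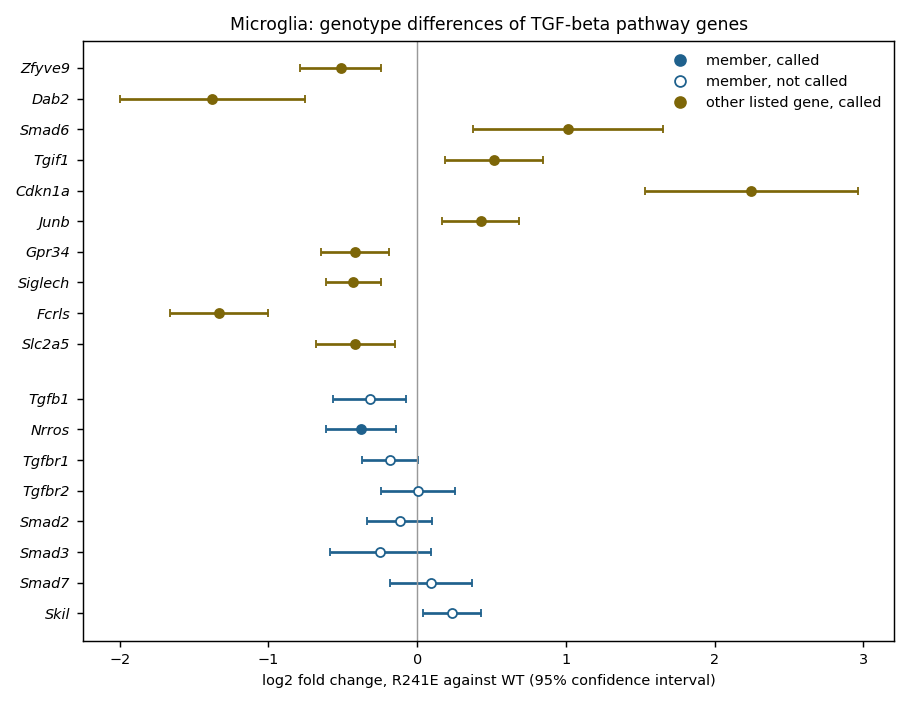
Log2 fold change with 95% confidence interval in microglia, R241E against WT, for the 8 tested genes (blue, filled where called) and for the 10 other listed genes that were called (brown). Nrros is the only filled blue point, at -0.38, whereas Cdkn1a, at 2.25, and Dab2, at -1.38, lie farthest from 0.

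A list of 12 genes known to depend on TGF-beta in microglia had 4 called lower and none higher, with a median log2 fold change of -0.29, where 414 of all 12725 genes were called lower and the median was -0.0048. Fcrls, an Fc receptor-like gene of homeostatic microglia, had 169 and 282 CPM in R241E and 530, 571 and 540 CPM in WT. It fell by 1.33 on the log2 scale (SE 0.16, adjusted p = 3.18e-05 by edgeR) and was called in all 14 alternatives. Siglech, a sialic acid-binding lectin, had 1031 and 1101 CPM against 1407, 1423 and 1421 CPM, a change of -0.43 ± 0.087 (adjusted p = 0.0044), and Gpr34, a lysophosphatidylserine receptor, changed by -0.42 ± 0.11 (adjusted p = 0.0228). Both calls were lost without R241E replicate 1 alone among single libraries (adjusted p = 0.105 and 0.319). Slc2a5, a fructose transporter, changed by -0.41 ± 0.12 (adjusted p = 0.0478) and was not called without any 1 of the 5 libraries.

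The list did not move as a block. Tmem119, whose locus carries the driver, had 123 and 162 CPM in R241E and 111, 104 and 115 CPM in WT (log2 0.34 ± 0.12, adjusted p = 0.108), and Olfml3 and Sparc also had positive values without a call. P2ry12 and Sall1, a purinergic receptor and a transcription factor of microglial identity, were lower in both R241E libraries than in any WT library, at log2 -0.19 and -0.25, without a call (adjusted p = 0.261 and 0.130).

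Whether the 10 genes differed between nuclei with more and with fewer interferon transcripts was asked within libraries. Interferon-high microglia held at least 3 UMIs of the 28-gene list after thinning to 1000 UMIs, and the other microglia held up to 2. They numbered 447 and 171 in R241E (44.8% and 34.3% of thinned microglia) and 33, 37 and 29 in WT (3.65%, 2.56% and 2.09%). With library as a term, 201 of 10054 genes were called, 2%, and none of the 8 tested members, whose log2 differences ran from -0.23 (Tgfb1) to 0.16 (Nrros) with adjusted p of at least 0.723 by edgeR, and 0 were under 0.05 before adjustment. Tgfb1 stood at 141 and 121 CPM in interferon-high and 178 and 149 CPM in other R241E microglia. For Nrros these values were 264 and 237 CPM against 231 and 178 CPM, so the interferon-high nuclei were the higher ones in both R241E libraries.

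When interferon-high nuclei were left out, a setting chosen after seeing the data, the log2 fold change of Nrros between genotypes was -0.48 (adjusted p = 0.0166 by edgeR). The nuclei left out had the higher Nrros in both R241E libraries, so leaving them out by itself lowers the R241E sums. The part of the interferon response in the Nrros difference was not tested. Of the 12 TGF-beta-dependent genes, all 12 had negative differences in interferon-high nuclei, where 46.7% of all genes had positive ones, and 11 were not called. The exception was Fcrls (log2 -0.42 ± 0.097, adjusted p = 0.0013), a call that was lost without either R241E library (adjusted p = 0.358 and 0.202).

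**Figure D4:**
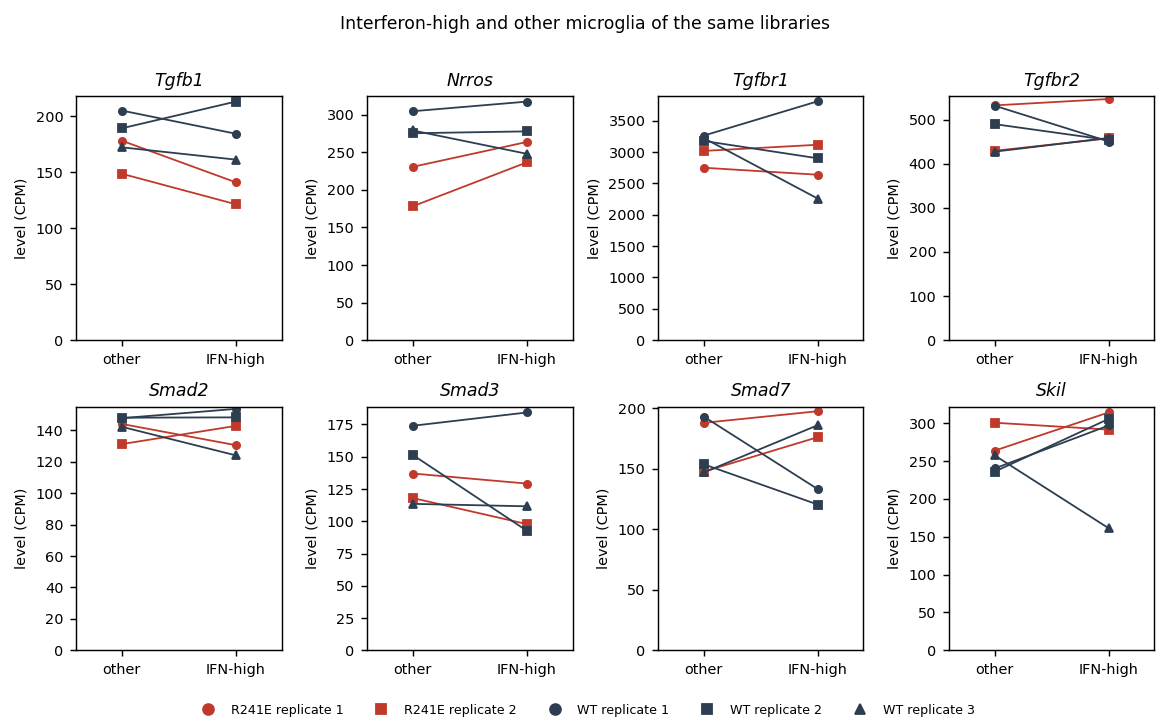
Level (CPM, linear axis from 0) of the 8 tested genes in other and in interferon-high (IFN-high) microglia, with a line for each library. The lines run in both directions for most genes, and for Nrros both R241E lines rise, from 231 to 264 CPM and from 178 to 237 CPM.

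Vessel classes were compared next. In mural cells 0 of 3862 genes were called (0%) by edgeR, 174 were under 0.05 before adjustment, and the DESeq2 Wald test called 0 genes. Only Tgfbr1, Tgfbr2 and Smad2 had enough counts there. Mural Tgfbr2 stood at 86.8 and 66.9 CPM in R241E and 143, 65.7 and 131 CPM in WT, an overlap through WT replicate 2, with a log2 fold change of -0.47 ± 0.37 (interval -1.22 to 0.28, adjusted p = 0.999). Tgfbr1, whose mural counts cannot be told apart from free RNA, differed by -0.013 ± 0.27 and Smad2 by 0.025 ± 0.46, and both signs turned in some alternatives. The other 7 genes, with 19 UMIs (Nrros) to 47 UMIs (Smad3) in mural cells, were below the filter and were not tested.

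In fibroblasts 1 of 5809 genes was called (0.0172%) and none of 6 tested members, with log2 fold changes from -0.53 (Skil) to 0.52 (Smad7) and adjusted p of at least 0.859. Fibroblast Skil was highest in WT replicate 1 (245 CPM), and the other libraries had 96.5 to 151 CPM. The Slc47a1 cluster held 104 of 167 and 57 of 151 fibroblasts in R241E, and 9 of 30, 17 of 67 and 38 of 94 in WT. Against the Pdgfra and Lama1 cluster it had more Smad7 (113 against 34.9 CPM) and more Skil (151 against 81.4 CPM). The part of this mix in the fibroblast results was not tested. The endothelial nuclei were too few for a test. In BAMs 37 of 3947 genes were called (0.937%) and none of 6 members. By the study's account the driver also acts in brain macrophages. Tmem119, whose locus carries it, had no UMI in BAMs of either genotype. BAM Nrros differed by 0.022 ± 0.17 on the log2 scale, where microglial Nrros differed by -0.38. The difference of 0.41 ± 0.19 had an adjusted p of 0.637 by edgeR (unadjusted 0.0283), so the Nrros effect was not shown to differ between microglia and BAMs.

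Among the remaining classes none of the 10 genes was called. Astrocytes had 35 of 7876 genes called (0.444%), and the smallest p among 7 members was that of Smad2, with an adjusted p of 0.474 by edgeR (unadjusted 0.0334) and 71.4 and 56.2 CPM in R241E and 30.5, 46.2 and 44.9 CPM in WT. Of the astrocytes of R241E replicate 1, 173 of 178 belonged to 1 of the 2 astrocyte clusters, against 31 of 144 in WT replicate 3, and the part of this in the result was not tested. Sparc, a matricellular protein gene on the list of TGF-beta-dependent genes, was called higher there, with 283 and 231 CPM in R241E and 146, 73.1 and 72.2 CPM in WT (log2 1.46 ± 0.29, adjusted p = 0.0455), and was lost without R241E replicate 1, WT replicate 2 or WT replicate 3 (adjusted p = 0.443, 0.367 and 0.243). Oligodendrocytes had 16 of 5613 genes called (0.285%) and neurons 1 of 8909 (0.0112%). In neurons Tgfbr1 had 65.9 and 108 CPM in R241E and 98.6, 187 and 447 CPM in WT, and the summed microglial markers in neurons moved with it, at 5.02% and 5.79% of their microglial level in R241E and 5.33%, 10.8% and 13.5% in WT. The part of free microglial RNA in that difference was not tested.

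Tests of the genotype effect in each class against microglia called no member. In these joint fits 8 to 10 members entered, but only 6 in BAMs, 3 in mural cells, 6 in fibroblasts, 7 in astrocytes, 3 in oligodendrocytes and 8 in neurons passed the count filter in that class alone. For a member that entered through the counts of 1 class, the missing call says nothing. The shares of all genes called were 0.742% for BAMs, 0.334% for mural cells, 1.02% for fibroblasts, 1.01% for astrocytes, 0.72% for oligodendrocytes and 0.1% for neurons. Over these tests the smallest adjusted p of a member was 0.329, for Smad2 in astrocytes against microglia, and single members were under 0.05 before adjustment in BAMs (1), fibroblasts (1), astrocytes (1) and neurons (2). Of the 56 pathway genes, Dab2 was the only one called, in BAMs and in astrocytes. The effect on Fcrls differed from the microglial one in BAMs, where it was not called itself (adjusted p = 0.335) and had 312 and 472 CPM in R241E and 549, 602 and 537 CPM in WT.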

How the data were processed

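Nuclei sorted as DAPI+ NeuN- Olig2- were profiled with the Chromium 3' v3.1 chemistry, and the authors deposited filtered matrices of UMI counts per gene and nucleus (Cell Ranger 7.0.0, build mm10), with no further normalization. Nuclei with at least 200 and under 4500 genes, under 10000 UMIs and under 5% mitochondrial UMIs were kept, clustered with scanpy 1.11.5 (3000 variable genes, 30 principal components, 20 neighbours, Leiden resolution 1) and named from markers where at least 3 were detected. The 10 genes and all lists were chosen with earlier results of these data known. Counts were summed per library and class and tested wherever each library gave a class 20 nuclei or more, with edgeR 4.0.16 (R 4.3.3; quasi-likelihood, TMM, low-count filter, genotype as the only term) and Benjamini-Hochberg adjustment over all genes, after the code was tested on simulated data. Effects were compared between classes in a joint fit with an interaction term, and interferon-high with other microglia with library as a term. P-values rest on variances between libraries that edgeR moderates with information from all genes, and not on the spread of 1 gene over these mice alone. In the joint fits and the interferon fit, with library as a term, they rest on differences within libraries. In the interferon fit the variance was in effect shared over all genes. Its p-values thus do not measure how far a single gene's difference varied between libraries.

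All 10 genes were named in every comparison. Of the pathway lists, each called gene was named (at most 15 per comparison), and uncalled list genes given as values were chosen after their values were seen. The 3 genes most like each member were named too, and results that need withheld items are not reported here. Alternatives were DESeq2 1.42.0 size factors or Wald test, no count filter, a replicate block, thinning to 1000 UMIs (374 nuclei were shallower), classes clustered without the listed genes, and each library left out. Scrublet called 42 nuclei (0.442%), too few to be trusted, so the 158 top-scoring nuclei were left out as an alternative instead. Counts intervals are exact at 95% and cover counting error only. Library totals ranged from 4183709 to 10130667 UMIs.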

Additional observations from a re-analysis of the deposited data

Results flagged for a closer look

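Among the listed genes, 4 genotype effects differed between a class and microglia by the interaction test of edgeR's joint fit, and none of these was one of the 10 genes. The log2 effect of R241E on Fcrls was 0.8301 higher in BAMs than in microglia (adjusted p = 0.0118), and that on Dab2 was 1.216 higher (adjusted p = 0.0115). In astrocytes, the effect on Sparc was 1.383 above the microglial one (adjusted p = 4.38e-04) and that on Dab2 was 2.242 above it (adjusted p = 5.86e-04). All 4 calls were lost without R241E replicate 1 (adjusted p = 0.581, 0.891, 0.855 and 0.933 in the same order), and that on Sparc also without WT replicate 2 (0.103).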

How the results depend on the processing

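The count of the 10 genes called in microglia, 1 as reported, was 0 with the DESeq2 Wald test, with thinned nuclei, with classes clustered without the lists and without macrophage-marker UMIs, and ranged from 0 to 3 when each library was left out. The 1183 genes called there became 739 with thinned nuclei and 782 without interferon-high nuclei, and ranged from 536 (without R241E replicate 1) to 1538 over libraries left out.

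With no count filter the genes called were 70 in BAMs, 3 in mural cells, 91 in fibroblasts, 264 in astrocytes, 47 in oligodendrocytes and 516 in neurons, where 1 of the 10 genes, Tgfbr1, was then called. With the DESeq2 Wald test they were 7 in BAMs, 2 in fibroblasts, 20 in astrocytes, 9 in oligodendrocytes and 89 in neurons. With thinned nuclei they were 7 in BAMs, 1 in mural cells and in oligodendrocytes, and 0 in fibroblasts, astrocytes and neurons. Without the top Scrublet scores they were 3 in mural cells and 0 in fibroblasts. With libraries left out in turn they ranged from 6 to 44 in BAMs, 0 to 2 in mural cells, 0 to 100 in fibroblasts, 1 to 108 in astrocytes, 6 to 45 in oligodendrocytes and 0 to 3 in neurons. The interaction test in neurons called 0 to 1 of the 10 genes, Tgfbr1 being called without WT replicate 1. Between interferon states 109 genes were called at 2 UMIs, 367 at 5 UMIs in the R241E libraries, and 84 to 209 with a library left out. The cause of these shifts was not tested.

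No label pairs the mice by replicate number, and deviations of same-numbered libraries correlated at 0.106 and -0.0196. With 2 R241E libraries the deviations mirror each other, so these values are not independent and cannot exclude a pairing. In the replicate block WT replicate 3 had no R241E partner. With the replicate block, 5 of the 10 genes and 2106 genes in all were called in microglia, and 66 genes in BAMs, 2 in mural cells, 0 in fibroblasts, 178 in astrocytes, 72 in oligodendrocytes and 171 in neurons. The block also turned the log2 fold change of Tgfbr2 in microglia to -0.0926 and of Smad7 to -0.01303.

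In microglia and mural cells the other values of the 10 genes that changed sign were not called. Tgfbr2 in microglia was -0.003234 with no filter, -0.008352 thinned, -0.01645 without macrophage-marker UMIs, -0.01608 without interferon-high nuclei, -0.1672 without R241E replicate 1 and -0.0716 without WT replicate 3, the libraries left out giving up to 0.1436, and Smad7 ran from -0.09308 without R241E replicate 1 to 0.2178. In mural cells Tgfbr1 was 0.05483 with no filter, 0.2615 without the top Scrublet scores, 0.08806 without R241E replicate 2 and -0.2533 to 0.3296 over libraries left out (the highest without WT replicate 2), and Smad2 was -0.1145, -0.3089 and -0.2275 without the top Scrublet scores, R241E replicate 1 and WT replicate 2, and at most 0.2957 with a library left out. In the other comparisons 93 values of the 10 genes, refitted 792 times in all, changed sign 99 times and were called in 2 refits. Thinning moved the level of Ltbp1 in mural cells to 45.72 CPM and of Smad2 in microglia to 130.5 CPM. Thinned fits dropped Cdkn1a in microglia and Smad2 and Tgfbr2 in mural cells at the count filter. Tgfb2 and Ltbp1 in microglia had too few UMIs for a test, and the endothelial class, with 7 to 17 nuclei per library, too few nuclei.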
